A study of Mus musculus with 24 samples.

Results

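The glycolytic isozymes Hk1, Hk2, Aldoa, Aldoc, Eno2, Eno3, Ldha, Ldhb and Pkm were followed in 4 tissues of male mice, 3 WT and 3 Rap1 KI/KI. Members were all probes whose accession belongs to these 9 genes. They came to 12 of the 55681 non-control probes on each array, for 9 of 21368 named genes. Hk1 had 2 probes and Ldha 3. Each mouse gave liver, brain, heart and skeletal muscle, and each tissue was hybridized to its own 1-color Agilent mouse array, for 24 arrays in all. Rap1 KI/KI mice, labelled RAP1 MUT, carry the I312R substitution in the telomere protein RAP1 in every cell from the germ line, with no Cre driver or transgene promoter, and WT mice carry no engineered allele. The knockin line was back-crossed to C57BL6 mice in the labels' spelling, the C57BL/6N substrain by the study's methods. Single mice are named WT1, WT2 and WT3 or KI1, KI2 and KI3. The labels give an age of 5 months for WT1 and KI1 and of 2 months for the rest, and no treatment. A level is the log2 of a probe's signal over the 75th percentile of its array, which is therefore at 0.

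Glycolysis splits glucose into pyruvate in the cytosol, and several of its steps are run by isozymes, enzymes of the same reaction that are encoded by different genes. Hexokinase traps glucose in the cell, aldolase cleaves the 6-carbon sugar, enolase makes phosphoenolpyruvate, pyruvate kinase makes pyruvate, and lactate dehydrogenase converts pyruvate and lactate into each other. The liver differs from the other organs in that it also makes glucose and uses its own pyruvate kinase gene.

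Each tissue held its own markers. The mean level of the hepatocyte list was 7.72 to 8.53 in the livers and below 0 on every other array. The neuron list was at 4.74 to 5.48 in the brains, the cardiomyocyte list at 5.50 to 8.06 in the hearts and the fast fibre list at 8.83 to 9.14 in the muscles. The 75th percentile intensity was 664 to 1679 in the liver, 1003 to 1566 in the brain, 673 to 1344 in the heart and 561 to 632 in the muscle. The number of arrays limited the precision. Several arrays stood apart. The muscle of KI3 had neuron markers, with Rbfox3 at 2.77 against -5.64 to -2.33 in the other muscles. The hearts of KI1 and KI3 had more fat cell markers, and the muscle of KI1 had the highest slow fibre and neutrophil markers. The heart of WT1 had the lowest mean of the cardiomyocyte list, 5.50 against 7.40 to 8.06 in the other hearts. Its fat cell list was lowest too, at -4.40, and this array was not left out singly. Values without the KI/KI arrays stand beside the genotype differences that they moved most. In RNA from whole tissue, fewer cells of a type and less RNA per cell cannot be told apart. Terf2ip, the gene for RAP1, differed between the genotypes by -0.40 to 0.09 on the log2 scale, with no call in any tissue. A knockin of a single residue need not change the level of the transcript, so that the level checks nothing about the labels.

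All 12 member probes were well above background on all 24 arrays, and none was saturated. Tissues were compared with limma over 42472 probes, and a probe was called at an adjusted p of at most 0.05 and a log2 difference of at least 1 in either direction. Against the liver, 7 of the 9 members were called in the brain (6 higher and 1 lower), where 62.8% of all probes were called, 28.6% as higher and 34.2% as lower. In the heart 8 were called (7 higher and 1 lower), against 49% of all probes, 25% higher and 24.1% lower. In the muscle 8 were called (7 higher and 1 lower), against 52.8%, with 27.1% higher and 25.7% lower. Heart and brain differed in 6 members (4 higher and 2 lower in the heart), against 48.3%, with 26.4% higher and 22% lower. Muscle and brain differed in all 9 (5 higher and 4 lower in the muscle), against 51.3%, with 28.4% higher and 22.9% lower. Muscle and heart differed in 4 (2 higher and 2 lower in the muscle), against 25.2%, with 12.6% higher and 12.7% lower. The median member exceeded its liver level by 3.34 log2 units in brain, by 4.87 in heart and by 3.64 in muscle, beside medians over all probes of -0.31, 0.00 and 0.06. It was 0.83 for heart over brain, 1.69 for muscle over brain and 0.86 for muscle over heart, where the medians over all probes were 0.22, 0.26 and 0.07. The comparisons share the arrays of each tissue, so these counts are not independent of each other.

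The span from the highest to the lowest tissue mean was wider for Eno2, at 9.80 log2 units, and Aldoc, at 9.65, than for 97.5% and 97.4% of the tested probes. It was 8.16 for Eno3, 7.84 for Hk2, 7.64 for Ldhb, 7.13 for Pkm and 5.27 for Hk1. The spans of Aldoa (3.64) and Ldha (2.45) were the narrowest among the members, beside a median of 2.19 over all tested probes.

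**Figure D1:**
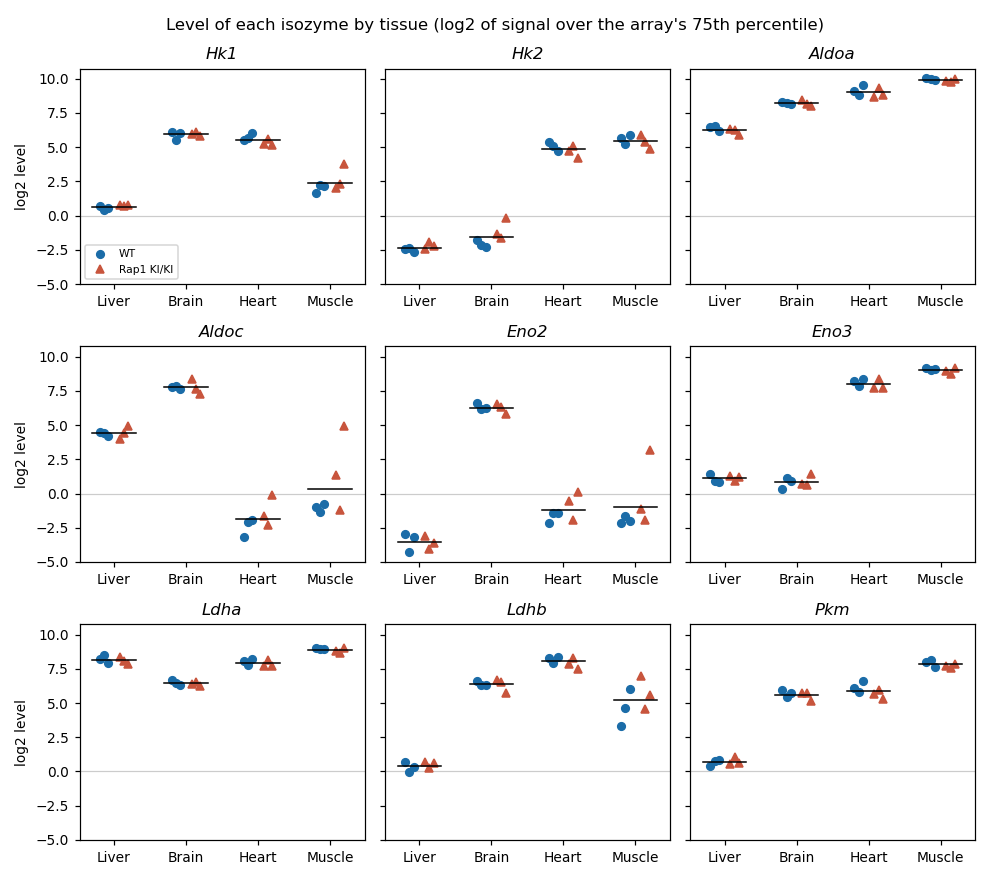
Level of each member by tissue on every array, in log2 units over the array's 75th percentile; circles are WT and triangles Rap1 KI/KI mice (3 each), bars are means of the 6 mice. Hk2 and Eno3 sit high in heart and muscle, Eno2 and Aldoc in brain, and the muscle of KI3 stands apart for Aldoc at 4.96 and Eno2 at 3.15.

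The hexokinases divided the tissues between them. Hk1, the hexokinase of most cells, was high in brain and heart, and Hk2, the insulin-responsive hexokinase of muscle and fat, was high in heart and skeletal muscle. Hk1 lies at chr10:62268855-62379920 and Hk2 at chr6:82725025-82774454 (GRCm38.p6).

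The Hk1 level (lowest, median and highest of 6 mice) was 5.56, 6.01 and 6.09 in the brain and 5.14, 5.56 and 6.03 in the heart. It was 1.65, 2.22 and 3.80 in the muscle and 0.40, 0.73 and 0.81 in the liver. The liver and the muscle did not overlap with each other or with the brain and heart, which overlapped. Brain exceeded liver by 5.27 (standard error 0.23, 38.6-fold, limma adjusted p = 7.7e-14). Heart exceeded muscle by 3.16 (standard error 0.23, adjusted p = 1.3e-09). Brain and heart differed by 0.40 (standard error 0.23, adjusted p = 0.13), which became a call after quantile normalization at -1.17 (heart minus brain). It was a call on the dimmer Hk1 probe as well, at -1.36 (adjusted p = 5.2e-06), where brain, at 0.66 to 1.74, and heart, at -0.79 to 0.43, did not overlap. The excess of muscle over liver, 1.70 (standard error 0.23, adjusted p = 2.0e-06), rested on the probe. The same dimmer probe was lower in muscle than in liver by 0.96 (adjusted p = 2.4e-04), and the mean of both probes gave 0.37 (adjusted p = 0.11).

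The Hk2 level was 4.86, 5.51 and 5.92 in the muscle and 4.19, 4.90 and 5.41 in the heart. It was -2.28, -1.73 and -0.18 in the brain and -2.63, -2.43 and -1.93 in the liver. The striated muscles thus lay apart from brain and liver with no overlap. Muscle exceeded liver by 7.84 (standard error 0.24, 229-fold, adjusted p = 4.1e-16), and heart exceeded brain by 6.45 (standard error 0.24, 87.1-fold, adjusted p = 3.2e-14). The lesser steps, 0.62 from heart to muscle and 0.78 from liver to brain, had adjusted p of 0.046 and 0.0067 and stayed under the fold required for a call.

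Hkdc1 and Hk3 had tissues of their own. Hkdc1, a hexokinase-like gene whose role is less well known, was higher in brain than in liver by 5.03 (standard error 0.79). Brain exceeded heart by 9.19, but Hkdc1 was not well above background in any heart, so that this size is uncertain. Hk3, a hexokinase of blood cells, was higher in liver than in each other tissue by 1.64 to 2.18.

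The upstream 250 bases of Hk2 from the RefSeq promoter table are shown because the gene had a wider span over the tissues than Hk1 and they hold ACGTG. These core letters of hypoxia response elements stand in capitals (as CACGT where the match is on the other strand). They do not set Hk2 apart, since a window of Hk1 also holds 2 matches, at 7 and 16 bases after the start. The stretch of Hk2 is chr6:82774455-82774704 on the minus strand (GRCm38.p6).
Hk2: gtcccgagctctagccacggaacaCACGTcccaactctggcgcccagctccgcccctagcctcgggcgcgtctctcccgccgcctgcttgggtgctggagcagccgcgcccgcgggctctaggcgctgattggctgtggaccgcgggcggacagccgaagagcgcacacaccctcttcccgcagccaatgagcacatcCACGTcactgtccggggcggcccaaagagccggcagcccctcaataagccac

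Promoter windows of 300 bases (250 before and 50 after the start) were found for all 9 members, 15 windows in all, and were searched on both strands for ACGTG, for CAGCTG (an E-box) and for TATAAA. The first of these was in 7 of the 15 windows, from 6 members, beside 19.6% of 32851 windows in the table. CAGCTG was in 3 windows (Aldoa, Eno3 and Pkm), beside 16.3% of all windows, and TATAAA in 1 (Eno2), beside 13.6%. Windows of a gene can overlap, and a match describes letters only.

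The aldolases ran in opposite directions between brain and striated muscle. Aldoa, the main muscle aldolase (chr7:126795234-126800994), was high everywhere and highest in skeletal muscle. Aldoc, the brain aldolase found in astrocytes and Purkinje cells (chr11:78323073-78327781), was highest in brain, second in liver and low in heart and in most muscles.

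The Aldoa level was 9.75, 9.93 and 10.03 in the muscle and 8.68, 8.98 and 9.52 in the heart. It was 7.99, 8.21 and 8.47 in the brain and 5.87, 6.28 and 6.55 in the liver. No tissues overlapped. Muscle exceeded liver by 3.64 (standard error 0.15, 12.4-fold, adjusted p = 4.2e-14) and brain by 1.69 (standard error 0.15, adjusted p = 6.0e-09). Quantile normalization reduced the latter to 0.17 (adjusted p = 0.098). Each neighbour in the order muscle, heart, brain, liver differed at an adjusted p of at most 0.00012, although the steps of 0.86 and 0.83 were too small for a call. These steps depended on the processing. Over the alternatives run, muscle over heart fell as low as 0.18 and heart over brain as low as -0.01.

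The Aldoc level was 7.30, 7.72 and 8.34 in the brain and 3.96, 4.44 and 4.95 in the liver. It was -3.16, -2.03 and -0.14 in the heart, and in the muscle it was -1.37, -0.86 and 4.96, the last in KI3. Brain exceeded heart by 9.65 (standard error 0.65, 805-fold, adjusted p = 1.3e-10) and liver by 3.34 (standard error 0.65, adjusted p = 0.00012). Liver exceeded heart by 6.31 (standard error 0.65, 79.5-fold, adjusted p = 5.8e-08), in contrast to Aldoa, which was lower in liver than in heart by 2.78. Liver exceeded muscle by 4.08 (standard error 0.65, adjusted p = 1.7e-05), and by 4.88 without the muscle of KI3. In the KI/KI mice alone it was 2.73 and not called (adjusted p = 0.070). Muscle minus heart was 2.24 (standard error 0.65, adjusted p = 0.0091) and 1.43 (standard error 0.42, adjusted p = 0.010) without the muscle of KI3. The muscle and heart values within the slide that held both tissues gave 1.39 (standard error 1.59), which was not called, as was the same difference with slide as a block (adjusted p = 0.28), without WT1 (2.03, adjusted p = 0.060) or in the KI/KI mice alone (3.09, adjusted p = 0.084).

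The enolases showed the widest exchange of isozymes. Eno2, the neuron-specific enolase (chr6:124760053-124769673), belonged to the brain, and Eno3, the muscle enolase (chr11:70653125-70662513), to heart and skeletal muscle.

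The Eno2 level was 5.80, 6.30 and 6.58 in the brain and -4.30, -3.39 and -2.92 in the liver. It was -2.16, -1.44 and 0.14 in the heart, and in the muscle it was -2.18, -1.81 and 3.15, the last again in KI3. Brain lay above every other array. Brain exceeded liver by 9.80 (standard error 0.60, 893-fold, adjusted p = 1.2e-11), heart by 7.50 (adjusted p = 1.3e-09) and muscle by 7.25 (adjusted p = 2.0e-09). Heart exceeded liver by 2.30 (standard error 0.60, adjusted p = 0.0022), but the call was lost without the hearts of KI1 and KI3 (1.73, adjusted p = 0.051) and with slide as a block (adjusted p = 0.097). The excess of muscle over liver, 2.56, became 1.77 without the muscle of KI3 and was still called (adjusted p = 1.3e-04). With slide as a block it was 2.13 (standard error 1.43, adjusted p = 0.26). Muscle and heart differed by 0.26 (standard error 0.60, adjusted p = 0.76), and by -0.53 (standard error 0.33) without the muscle of KI3.

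The Eno3 level was 8.74, 9.04 and 9.17 in the muscle and 7.71, 8.03 and 8.39 in the heart. It was 0.83, 1.07 and 1.46 in the liver and 0.31, 0.82 and 1.46 in the brain. Muscle exceeded brain by 8.16 (standard error 0.19, 286-fold, adjusted p = 2.9e-17) and liver by 7.91 (241-fold, adjusted p = 1.0e-17). Heart was below muscle by 0.98 (standard error 0.19, adjusted p = 0.00034), a step just too small for a call, with no overlap of the arrays. Liver and brain overlapped and differed by 0.25 (standard error 0.19, adjusted p = 0.24). Eno1, the enolase of most tissues, moved far less, and its liver excess was 0.72 over brain (not called), 1.62 over heart and 1.37 over muscle (both called).

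Pkm encodes the muscle-type and general pyruvate kinases by alternative splicing (chr9:59656576-59679372). Its probe carries the accession of a single transcript, and which splice forms it binds was not tested. The Pkm level was 7.53, 7.77 and 8.16 in the muscle and 5.29, 5.88 and 6.58 in the heart. It was 5.14, 5.72 and 5.93 in the brain and 0.38, 0.68 and 1.02 in the liver. The liver lay far below the other tissues. Muscle exceeded liver by 7.13 (standard error 0.17, 140-fold, adjusted p = 1.1e-17), heart by 1.91 (adjusted p = 2.8e-08) and brain by 2.20 (adjusted p = 9.6e-10), the last 0.99 and just under the fold for a call after quantile normalization. Heart and brain differed by 0.29 (standard error 0.17, adjusted p = 0.15). Pklr, the liver and red cell pyruvate kinase, was well above background in all 6 livers, 4 of 6 brains and 2 of 6 hearts. It was higher in liver than in brain by 7.70 and than in heart by 7.88, differences that include the arrays at background. In no muscle was it well above background, so that the size of the liver excess over muscle, measured as 8.94, is uncertain.

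The lactate dehydrogenases separated the liver from the brain and heart. Ldha encodes the subunit of the muscle-type enzyme (chr7:46842274-46855627) and Ldhb that of the heart-type enzyme (chr6:142490249-142507957), and the subunits mix in tetramers. The 250 bases before a start of each gene are shown because the isozymes shifted against each other between tissues and ACGTG matched 5 times in the window of Ldha and nowhere in that of Ldhb. ACGTG stands in capitals. Where CACGTG occurs, as it does at 2 places in Ldha, the motif reads on both strands and the matches overlap, so that the 5 matches of Ldha lie at 3 places. The second RefSeq window of Ldha and the window of Ldhb hold none. The stretch of Ldha is chr7:46845554-46845803 on the plus strand and that of Ldhb chr6:142507958-142508207 on the minus strand (GRCm38.p6).
Ldha: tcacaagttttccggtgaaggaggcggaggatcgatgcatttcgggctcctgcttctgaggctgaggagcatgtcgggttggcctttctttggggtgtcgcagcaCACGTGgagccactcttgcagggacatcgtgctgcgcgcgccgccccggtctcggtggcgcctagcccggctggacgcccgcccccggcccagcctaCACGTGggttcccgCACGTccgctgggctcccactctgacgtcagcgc
Ldhb: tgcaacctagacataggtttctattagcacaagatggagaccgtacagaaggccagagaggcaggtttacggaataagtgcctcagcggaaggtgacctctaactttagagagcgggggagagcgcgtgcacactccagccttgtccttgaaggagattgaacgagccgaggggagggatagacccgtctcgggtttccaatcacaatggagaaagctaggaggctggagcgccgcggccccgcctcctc

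The Ldha level was 8.65, 8.92 and 9.03 in the muscle and 7.86, 8.15 and 8.50 in the liver. It was 7.68, 7.90 and 8.19 in the heart, while the brain had 6.25, 6.41 and 6.69. Liver and heart overlapped, and the brain lay below all other arrays. Muscle exceeded brain by 2.45 (standard error 0.14, 5.46-fold, adjusted p = 1.1e-11), and by 0.89 after quantile normalization (adjusted p = 4.2e-08), which is under the fold required for a call. Brain was below liver by 1.72 (adjusted p = 9.5e-10) and below heart by 1.48 (adjusted p = 1.4e-08), and these too fell under that fold after quantile normalization, to 0.67 and 0.48 in size. Liver and heart differed by 0.24 (standard error 0.14, adjusted p = 0.14) on the brightest probe and were called on 1 of the dimmer probes, where liver, at 5.74 to 6.09, exceeded heart, at 3.78 to 4.89, by 1.55 (adjusted p = 6.6e-08). The dimmer Ldha probes gave the same order of brain below liver, by 1.83 and 3.00, and a wider excess of muscle over brain, of 4.40 and 4.67. They also gave an excess of muscle over heart of 3.00 and 3.23, where the brightest probe gave 0.97, and a called excess of muscle over liver of 2.57 and 1.68, where it gave 0.73 and no call.

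The Ldhb level was 7.52, 8.09 and 8.40 in the heart, while the brain had 5.73, 6.44 and 6.68. It was 3.30, 5.11 and 7.01 in the muscle and -0.06, 0.44 and 0.67 in the liver. Heart lay above all others and liver below all others, and the muscles spread widely and overlapped with the brain. Heart exceeded liver by 7.64 (standard error 0.39, 199-fold, adjusted p = 1.2e-12) and brain by 1.67 (adjusted p = 8.4e-04), the latter 0.71 (adjusted p = 0.083) after quantile normalization. Muscle was below heart by 2.85 (standard error 0.39, adjusted p = 6.0e-06). Muscle was below brain by 1.18 (standard error 0.39, adjusted p = 0.011), and this call was lost without WT1 (-0.80, adjusted p = 0.083), without KI2 (-0.85, adjusted p = 0.087), in the KI/KI mice alone (-0.59, adjusted p = 0.35) and with slide as a block (-0.92, adjusted p = 0.32). Ldhc, the lactate dehydrogenase gene of testis, was well above background in all 6 muscles and in no brain. Muscle exceeded brain by 3.91, a size that is uncertain because the brain values lie at background.

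To compare isozymes of the same enzyme directly, the log2 ratio of a pair was taken within each array, where the scaling of the array cancels, and its shift between tissues was tested over the 6 mice with an exact two-sided sign-flip test. The ratio itself depends on the probes and carries no meaning, so only shifts are given. Of 24 shifts (4 pairs and 6 pairs of tissues), 21 ran in the same direction in all 6 mice and passed at an adjusted p of 0.036 by this exact test (raw p = 0.031, the smallest that 6 mice can give).

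The Hk2 over Hk1 ratio rose in the order brain, liver, heart, muscle. It was lower in brain than in liver by 4.50 (SD 0.82, n = 6), and higher in heart than in liver by 2.35 (SD 0.46) and in muscle than in heart by 3.78 (SD 1.03). From brain to muscle it moved by 10.63 (SD 1.83), and by at least 7.06 in every mouse. KI3 stood apart in both of these tissues, at -6.00 in the brain against -8.32 to -7.31 in the other mice and at 1.06 in the muscle against 3.01 to 4.01. The sizes rest on the brightest Hk1 probe, where heart exceeded liver by 4.87, against 1.73 on the dimmer probe. Over the alternatives run, the ratio shift from liver to heart reached 3.92.

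The Aldoa over Aldoc ratio was lower in brain than in liver by 1.40 (SD 0.67, n = 6) and higher in heart than in brain by 10.49 (SD 1.21). Muscle minus heart was -1.38 (SD 1.48), below 0 in 5 of 6 mice (exact p = 0.063, adjusted p = 0.068). After quantile normalization it was -2.08 (adjusted p = 0.034). KI3 had the lowest muscle ratio of all mice, at 5.00, where the other mice had 8.43 to 11.32.

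The Eno3 over Eno2 ratio moved most. It was lower in brain than in liver by 10.05 (SD 0.63, n = 6), higher in heart than in brain by 14.69 (SD 1.67) and higher in muscle than in brain by 15.41 (SD 2.56). Muscle and heart differed by 0.72 (SD 1.22, higher in 5 of 6 mice, exact p = 0.22, also after adjustment).

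The Ldha over Ldhb ratio was lower in brain than in liver by 7.69 (SD 0.56, n = 6) and in heart than in liver by 7.88 (SD 0.52). Heart minus brain was -0.18 (SD 0.17, lower in 5 of 6 mice, exact p = 0.094, adjusted p = 0.098). In the muscle the ratio lay between, 4.06 below the liver (SD 1.33) and 3.82 above the heart (SD 1.37), and it ranged from 1.80 in KI1 to 5.70 in WT1. These sizes rest on the brightest Ldha probe. Over the alternatives run, the muscle excess over the heart reached 5.25.

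**Figure D2:**
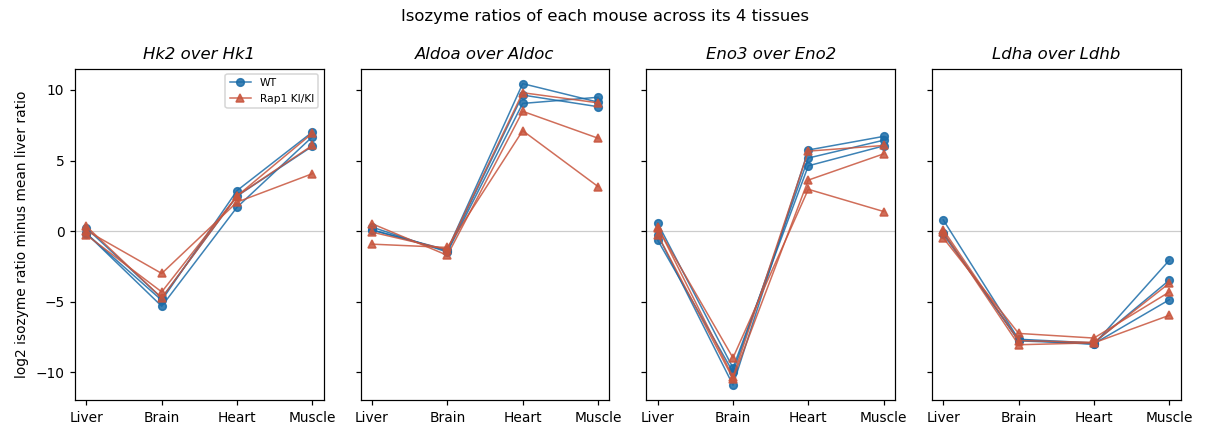
Log2 ratio of each isozyme pair on every array minus the mean liver ratio of that pair (y axis), by tissue (x axis); each line joins the 4 tissues of a mouse, blue circles WT and red triangles Rap1 KI/KI (3 each). The lines spread most in muscle, where KI3 lies lowest for Hk2 over Hk1, Aldoa over Aldoc and Eno3 over Eno2 and KI1 for Ldha over Ldhb, while KI1 and KI3 lie lowest in heart for the aldolases and enolases and KI3 highest in brain for the hexokinases.

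Rap1 KI/KI and WT mice were compared within each tissue with limma. No member was called at an adjusted p of at most 0.05 in liver, brain, heart or muscle, where 0% of the probes tested were called in each. At an unadjusted p under 0.05, 1 member passed in the brain (2.64% of all probes), and none passed in the liver (2.16%), heart (7.36%) or muscle (2.48%). The lowest adjusted p of a member was 0.67, for Pkm in the heart. On the brightest probe of each gene, genotypes did not overlap for 1 member in the liver (Hk1, 6.24% of all probes) and for 1 in the brain (Hk2, 7.95%). They overlapped for every member in the heart (14.2% of all probes apart) and the muscle (6.24%). The dimmer probes differed from this. The dimmer Hk1 probe overlapped in the liver and was apart in the heart (WT -0.07 to 0.43, KI/KI -0.79 to -0.29). A dimmer Ldha probe was apart in the liver (WT 5.74 to 5.83, KI/KI 5.94 to 6.09). The exact permutation test of 3 against 3 mice cannot give a p below 0.1.

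Hk2 was the member that passed in the brain. Its level was -1.81, -2.18 and -2.28 in WT1 to WT3 and -1.34, -1.65 and -0.18 in KI1 to KI3. All KI/KI brains lay above all WT brains, and KI3 lay highest. The difference was 1.03 (standard error 0.41, limma adjusted p = 1.00, exact permutation p = 0.1), and it was 0.59 (standard error 0.23, adjusted p = 0.95) without the brain of KI3. That brain also had the highest level of the astrocyte gene Gfap, 5.21 against 1.79 to 3.13 in the other brains, and its astrocyte list mean was 3.59 against 2.58 to 3.11. The Purkinje cell list varied too, from -1.78 in KI3 to 2.86 in KI1. The part of either in the Hk2 difference was not tested. In limma's F test of whether the genotype difference varied between tissues, no member passed after adjustment (adjusted p = 1.00 for each), as 0% of all probes did. At an unadjusted p under 0.05 Hk2 alone passed of the members, where 2.91% of all probes did.

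Hk1 in the liver was 0.71, 0.40 and 0.53 in WT1 to WT3 and 0.81, 0.74 and 0.75 in KI1 to KI3. The groups did not overlap, and the difference was 0.21 (standard error 0.18, adjusted p = 1.00). On the dimmer Hk1 probe the groups overlapped, at -2.11 to -1.68 in WT and -2.17 to -1.72 in KI/KI livers. In the heart 7 of 9 members had lower means in KI/KI mice, Aldoc and Eno2 being the exceptions, with differences from -0.55 (Pkm) to 1.04 (Aldoc). Pkm in the heart was 6.13, 5.84 and 6.58 in WT1 to WT3 and 5.69, 5.92 and 5.29 in KI1 to KI3. In all 7 of these members KI1 and KI3, the hearts with more fat cell markers, lay below KI2. Without those hearts, with KI2 taken to vary like the WT mice, 4 of the 7 differences were above 0 and 3 below, from -0.26 (standard error 0.46) for Pkm to 0.25 (standard error 0.41) for Eno3. This rise follows from KI2 lying above KI1 and KI3 in all 7 and is no test of the fat cell markers. In the liver the differences lay between -0.24 and 0.29.

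**Figure D3:**
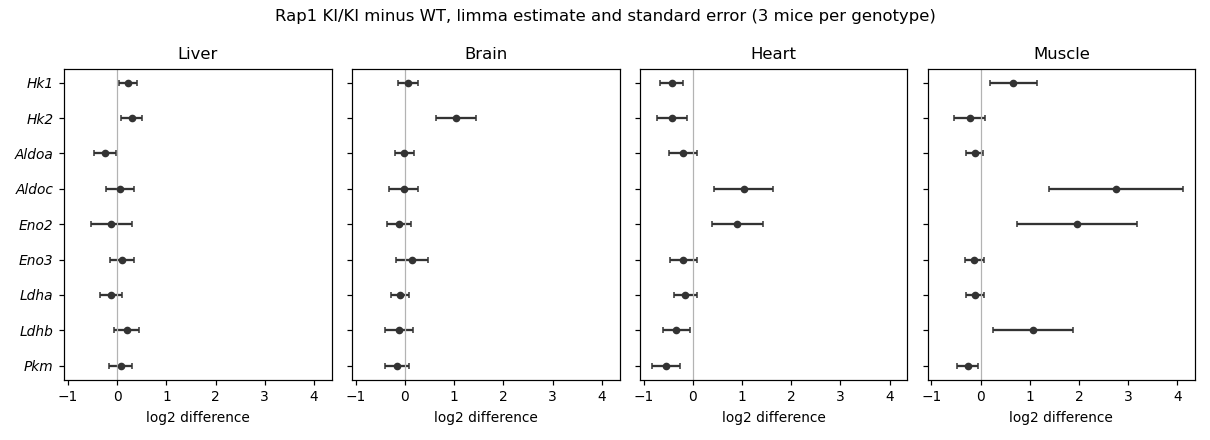
Rap1 KI/KI minus WT on the log2 scale (x axis) for each member (y axis) in each tissue; points are limma estimates and bars standard errors, with 3 mice per genotype. The widest bars belong to Aldoc (estimate 2.75, standard error 1.36) and Eno2 (estimate 1.96, standard error 1.22) in the muscle, and no difference was called.

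The largest genotype differences were those of Aldoc and Eno2 in skeletal muscle, where the array of KI3 was the highest for both. Aldoc in the muscle was -0.95, -1.37 and -0.76 in WT1 to WT3 and 1.39, -1.18 and 4.96 in KI1 to KI3. KI3 and KI1 lay above the WT mice and KI2 among them. The difference was 2.75 (standard error 1.36, adjusted p = 0.95), and 1.13 (standard error 0.71) without the muscle of KI3. Eno2 in the muscle was -2.18, -1.66 and -1.99 in WT mice and -1.15, -1.96 and 3.15 in KI/KI mice. Its difference was 1.96 (standard error 1.22, adjusted p = 0.95), and 0.39 (standard error 0.32) without the muscle of KI3. Hk1 was likewise highest in the muscle of KI3, at 3.80 against 1.65 to 2.29 in the other muscles. Its difference was 0.66 (standard error 0.48, adjusted p = 0.95), and 0.11 (standard error 0.27) without the muscle of KI3.

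The neuron list was highest in the muscle of KI3 and next in that of KI1, as were Aldoc and Eno2. On its brightest probe Hk1 was raised in KI3 only, with KI1 at 1.99 among the other muscles. On the dimmer Hk1 probe KI3, at -2.25, was highest but close to WT2, at -2.45, with the rest at -3.21 to -2.98. The mean of the neuron list, 7 genes, was 1.75 in the muscle of KI3 and -1.84 in that of KI1, against -4.65 to -3.98 in the other muscles. The neurofilament gene Nefl was at 0.47 in KI3, -3.96 in KI1 and -7.63 to -7.44 in the others. Gfap was at 1.72 in KI3 and -7.80 to -2.85 in the others. Over the whole astrocyte list, the mean was 1.15 in KI3, while KI1, at -1.89, lay within the -2.71 to -1.64 of the rest. The Purkinje cell list was at -2.80 in KI3, -3.44 in KI1 and -3.87 to -3.67 in the rest. The astrocyte list thus did not follow Aldoc in KI1. Of the 7 neuron markers, 7 were well above background in the muscle of KI1, 6 in that of KI3, where the spot of Syt1 had an outlier flag and was left out of the mean, and 2 or 3 in the others. The part of these cells in the Aldoc, Eno2 and Hk1 values was not tested.

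In the heart Aldoc was -3.16, -2.11 and -1.96 in WT1 to WT3 and -1.65, -2.32 and -0.14 in KI1 to KI3. Eno2 was -2.16, -1.42 and -1.46 in WT mice and -0.53, -1.90 and 0.14 in KI/KI mice. In both genes KI1 and KI3 lay above every WT heart and KI2 did not. Without the hearts of KI1 and KI3, which leaves KI2 alone against the WT mice, the differences of 1.04 and 0.91 became 0.09 and -0.23. This drop follows from the low values of KI2 and is no test of the markers below. The fat cell list, 5 genes, had a mean of 1.73 in KI1 and 2.91 in KI3 against -4.40 to -1.03 in the other hearts, and Nefl was at -2.72 and -1.05 against -8.24 to -7.38. The part of fat and nerve in the heart values was not tested.

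Ldhb in the muscle was 3.30, 4.64 and 6.02 in WT1 to WT3 and 7.01, 4.58 and 5.58 in KI1 to KI3, and the genotypes overlapped. The difference was 1.07 (standard error 0.82, adjusted p = 0.95), and 0.43 (standard error 0.81) without the muscle of KI1. Slow oxidative fibres express heart-type lactate dehydrogenase, and their troponin Tnnt1 was 6.06 in KI1, 3.65 in KI3, 2.95 in WT3, 1.13 in WT2, 0.97 in KI2 and 0.35 in WT1. Over the whole slow fibre list, 4 genes, the mean was 3.96 in KI1, 1.58 in KI3, 0.42 in WT3, -1.22 in WT2, -1.34 in WT1 and -1.45 in KI2. KI1 was highest in Ldhb and in the list, but WT3 lay above KI3 in Ldhb and below it in the list, and WT1 was lowest in Ldhb and KI2 in the list. The neutrophil list, 5 genes, was also highest in KI1, at 2.88 against -4.71 to -0.15 in the other muscles. The part of slow fibres and of neutrophils in the Ldhb spread was not tested. Ldha in the same muscles spread from 8.65 to 9.03.

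**Figure D4:**
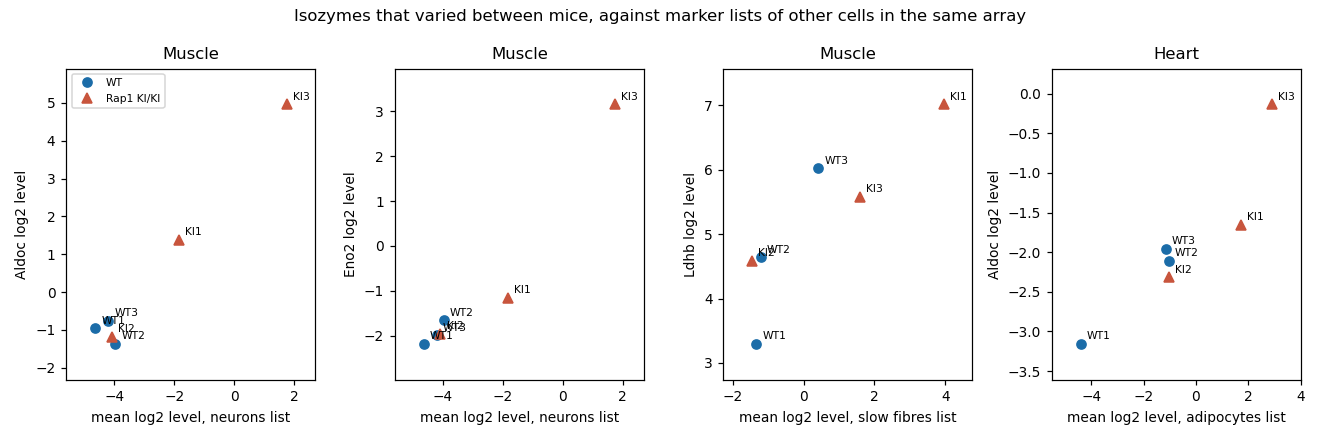
Level of an isozyme (y axis) against the mean level of a marker list on the same array (x axis), both log2, for the 6 muscles (Aldoc and Eno2 with neurons, Ldhb with slow fibres) and the 6 hearts (Aldoc with adipocytes); circles are WT, triangles Rap1 KI/KI. KI3 is farthest to the upper right for Aldoc and Eno2 in muscle and for Aldoc in heart, and KI1 for Ldhb in muscle.

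The isozyme ratios were compared between genotypes in the same way. Chance alone sets 3 against 3 mice fully apart with a probability of 0.1. Of 16 comparisons (4 pairs in 4 tissues), the genotypes were fully apart in 1, Ldha over Ldhb in the heart. That ratio was -0.25, -0.16 and -0.21 in WT1 to WT3 and -0.15, -0.12 and 0.19 in KI1 to KI3. The difference was 0.18 (exact permutation p = 0.1, the smallest possible, adjusted p = 0.80). It was 0.09 without the hearts of KI1 and KI3, which leaves KI2 alone. The widest difference, -2.87 for Aldoa over Aldoc in the muscle, had an exact p of 0.2 and an adjusted p of 0.80, and it was -1.31 without the muscle of KI3.

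The rest of the pathway was taken from a list of 34 other glycolysis genes (glucose and lactate transporters, the remaining enzymes, their regulators and pyruvate dehydrogenase kinases). In the brain 10 of the 34 were higher than in the liver and 14 lower, against 11 and 13 for the heart and 15 and 15 for the muscle, beside median differences of -0.77, -0.37 and 0.84. Heart exceeded brain in 15 and was lower in 5. Muscle exceeded brain in 18 and was lower in 8, and it exceeded heart in 11 and was lower in 7. These counts compare with the shares of all probes given above.

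Among the largest differences were those of transporters and isozymes of single organs. Slc2a2, the liver glucose transporter, was higher in liver than in brain by 14.20. No brain was well above background, so that this size is uncertain. Pgam2, the muscle phosphoglycerate mutase, was higher in muscle than in liver by 13.65 (standard error 0.17, adjusted p = 2.2e-21), and Slc2a4, the insulin-responsive glucose transporter, by 11.23 (standard error 0.23, adjusted p = 1.3e-18). Slc16a3, a lactate exporter of glycolytic cells, was higher in muscle than in liver by 9.13 (standard error 0.19, adjusted p = 1.1e-18), and its heart level of 0.08 was near that of the brain, -0.11. Between genotypes none of the list was called in any tissue. At an unadjusted p under 0.05, 1 of 32 tested passed in the brain (2.64% of all probes) and 4 of 30 in the heart (7.36%), and none passed in the liver or muscle. The brain gene was Slc2a4, higher in KI/KI by 1.02 (standard error 0.36, limma adjusted p = 1.00) with no overlap. The genotypes did not overlap for 3 of the 4 heart genes, beside 14.2% of all probes, and also for genes of the list that did not pass. The 4 were taken by a low p on the same arrays, which favours such separation. Bpgm, which makes bisphosphoglycerate in red cells, was higher in KI/KI hearts by 0.76 (standard error 0.22), while Pfkl, the liver phosphofructokinase, and Pdk2, a pyruvate dehydrogenase kinase, differed by -0.87 (standard error 0.31) and -0.81 (standard error 0.32), each at a limma adjusted p of 0.66. Without the hearts of KI1 and KI3, which leaves KI2 alone, these were 0.63, -0.73 and -0.63. These genes were picked out after their values were seen.

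**Figure D5:**
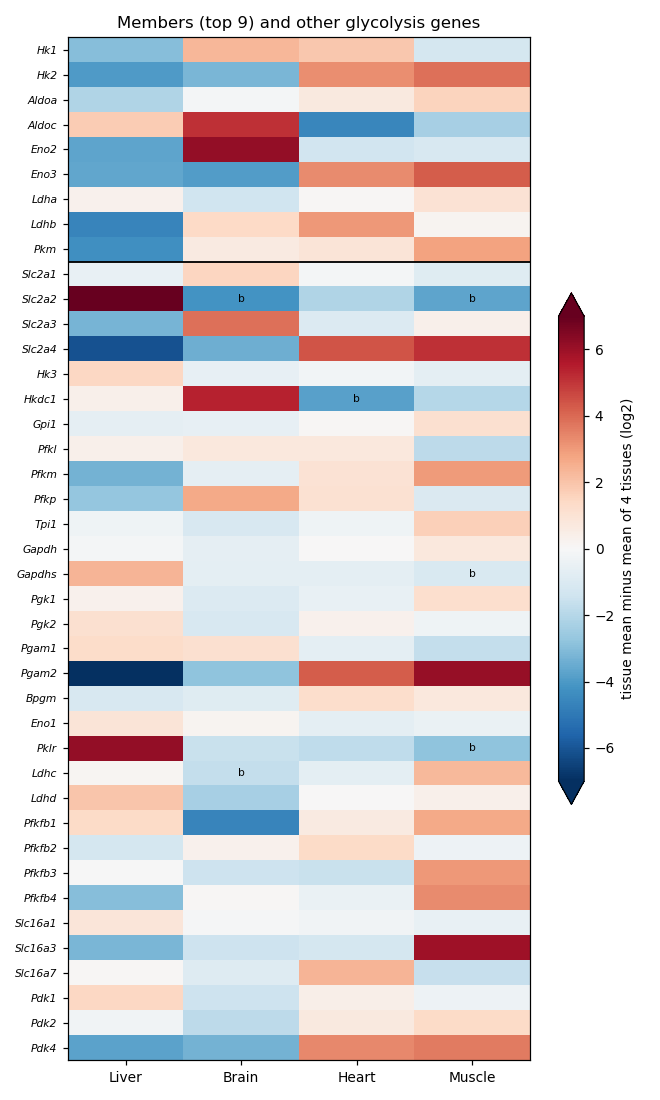
Tissue mean of each member (top 9 rows) and of 32 other glycolysis genes minus the mean of its 4 tissues, in log2 units (color scale, limited to -7 to 7), with 6 mice per tissue; the letter b marks a tissue with no array well above background. Pgam2 and Slc2a4 share the high heart and muscle of Eno3 and Hk2, while Slc2a2 and Pklr are high in liver.

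For each member the genes with the most similar profile were taken by Pearson correlation over the 24 arrays among 18401 named genes, as a description that mostly carries differences between the tissues shared by many genes. Eno2 was most like Prkar1b (r = 0.996), Arhgef4 and Zcchc18, and Eno3 most like Tmem182 (0.996), Apobec2 and Myom1. Hk2 was most like Hspb2 (0.994), Alpk3 and Asb14, and Hk1 most like Efnb3 (0.989), Osbp2 and Csdc2. Aldoa went with Ppp1r12b (0.989), Tmem38a and Ky, and Aldoc with Aifm3 (0.987), Kcnj16 and Olig1. Ldha went with Nmnat1 (0.987), Dusp23 and Nme6, Ldhb with Rcan2 (0.987), Jcad and Enah, and Pkm with Cst6 (0.992), Zfp651 and Hr. Each correlation spans the same 6 mice.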

How the data were processed

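Each of 24 1-color arrays measured RNA of a tissue from a single mouse. The authors deposited spot intensities that Feature Extraction 12.0.3.1 had corrected for background and spatial trend, without scaling the arrays to each other. They also deposited a series table of scores, which are z-scores within an array of the log10 processed signal, since z-scores recomputed here differed by at most 0.005. The log2 levels were computed here from the deposited intensities, minus the 75th percentile of the array, without control and outlier-marked spots and with spots of a probe averaged. Probes were named from their accession through RefSeq names (28331 of 55681 probes). The brightest probe over 24 arrays stands for a gene.

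A probe entered the tests if any tissue had it well above background on 3 or more of its 6 arrays. Tests were run with limma 3.58.1 in R 4.3.3 (with the package data.table, version 1.17.8), two-sided, with Benjamini-Hochberg adjustment over all tested probes. Tissues were compared in a group-means model of all 24 arrays, averaged over genotypes, and genotypes within each tissue. Isozyme ratios used exact tests, adjusted over 24 and 16 comparisons. Replicates are separate mice. The paper's methods state no test for the arrays. Fits were tested on simulated data.

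The members and lists were chosen with earlier results of these data known. Genes were named by rule: all members, the other isozymes of their enzymes, at most the 6 called genes of the glycolysis list with the largest difference, and the 3 genes most like each member. Of the glycolysis list, 2 genes enter the counts and are not reported here by name. Marker genes were named beside a member's level. Alternatives were quantile normalization, normexp background correction (offset 50), z-scores, other filters and thresholds, slide, age or mouse as a block, other eBayes settings, the mean over probes, each genotype alone, each mouse left out and single arrays left out, the last chosen after seeing the data.

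The 24 arrays lie on 3 slides. The first held 6 liver and 2 brain arrays, the second 4 brain and 4 heart arrays, and the third 2 heart and 6 muscle arrays. Same-mouse arrays of different tissues correlated at -0.22 to 0.26 after removal of group means (36 pairs, median 0.05), and the pairing comes from the animal numbers in the labels.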

Additional observations from a re-analysis of the deposited data

How the results depend on the processing

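No called value reversed under any alternative run. Of 1323 alternative values for members between tissues, 1270 kept their side of the threshold, 27 lost the call and 26 gained it. All 558 alternative values between genotypes stayed uncalled, and 45 of them changed sign. The replicate block with the mouse changed no call of a member between tissues. With that pairing the difference of Aldoc between muscle and heart, 2.24, had a standard error of 0.58 in place of 0.65. With arrays taken as unpaired, 21 ratio shifts passed, as many as with pairing.

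Between muscle and heart, 8 members were called with z-scores and 8 by adjusted p alone, in place of 4. With a log2 difference of at least 2, the other glycolysis genes called fell to 18 between muscle and liver, 13 between heart and brain and 9 between muscle and heart, from 30, 20 and 18. Of the ratio shifts, 0 passed when any mouse was left out (0 to 0), since 5 mice cannot give an exact p below 0.063, and 0 without the muscle array of KI3, the muscle array of KI1, the brain array of KI3 or the hearts of KI1 and KI3, since adjustment then spans shifts of 5 or fewer mice. Ratios with genotypes fully apart numbered 2 with z-scores and from 1 to 6 with a mouse left out, in place of 1. Full separation is more likely by chance with fewer mice, so these counts do not measure the processing alone.

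Scaling moved the median of all probes between muscle and liver from 0.06 to 0.43 with normexp, and between brain and liver from -0.31 to -0.18 with quantile normalization. Within-slide values exist only for the tissue pairs that share a slide (brain and liver, heart and brain, muscle and heart). For liver against heart or muscle and for brain against muscle, slide enters only as a block through the slides that share a tissue. In the brain, slide coincides with age.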
